A study of Mus musculus with 8 samples.

Results

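Effector Th2 cells were compared with naive CD4 T cells, the cells from which they are grown, in 4 of the 8 RNA sequencing libraries of the series, 2 for each group. These libraries were taken by their labels alone, and no expression value entered the choice. All 8 libraries came from DO11.10 Tg mice, in which a transgenic T cell receptor for an ovalbumin peptide is borne by CD4 T cells. The naive cells were splenic CD4+ cells sorted for a naive surface phenotype, low CD44 included, and were not cultured. The Th2 cells grew from such cells for 6 days with IL-2 at 30 U/ml, added as culture supernatant, IL-4 at 100 U/ml and an antibody to IFN-γ at 10 µg/ml. Of the 4 other libraries, 2 were Th1 cultures, given an antibody to IL-4 at 1 µg/ml with IL-12 at 100 U/ml and the same dose of IL-2. The last 2 were Th17 cultures, given IL-6, IL-1β and IL-23 at 10 ng/ml each with antibodies to IL-4 and IFN-γ at 10 µg/ml each and no added IL-2, and both kinds serve below only to show where the Th2 cultures differ from them. As the stimulus of its helper cell cultures the study used ovalbumin peptide and irradiated splenocytes depleted of T cells. Antigen, time in culture, IL-2, IL-4 and the antibody to IFN-γ therefore changed together between naive and Th2 cells, and their shares in any difference cannot be told apart. No label says that the 2 libraries of a group came from separate mice or cultures, so the p-values measure only the spread between these libraries, which may be technical.

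Th2 cells are the helper T cells of the response to parasitic worms and of allergy. IL-4 binds its receptor and activates STAT6, which raises the transcription factor GATA3, and GATA3 with STAT6 opens a cluster of cytokine genes whose products switch B cells to IgE (IL-4), recruit eosinophils (IL-5) and act on airway and gut epithelium (IL-13). A naive CD4 T cell is a small resting cell that enters lymph nodes by CCR7 and is held at rest by factors such as TCF-1 and KLF2.

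Levels are given as FPKM, a fragment count divided by the length of the exons and by the size of the library, so that values of different genes are per length and can be set side by side. Where a pair of values is given, replicate 1 comes before replicate 2, and "from" and "to" stand for the naive and the Th2 libraries. Differences are on the scale of log2(FPKM + 1), Th2 minus naive unless another pair is named, and understate the change of genes with low FPKM. Genes whose mean FPKM over these 4 libraries reached 1, 10944 in all, were tested with limma, and a gene was called at a Benjamini-Hochberg adjusted p-value under 0.05. Among them 1014 had a mean under 1 in the naive libraries and 480 in the Th2 libraries, and passed only through the other group. Such genes could hardly be called other than higher in the group through which they passed. Of the genes tested, 3401 (31.1%) were called higher and 4413 (40.3%) lower in Th2 cells, and the median difference over all of them was -0.15. A 2-fold change as well was met by 1993 genes (18.2%) in the higher and 1866 (17.1%) in the lower direction. With 71.4% of the genes called, the counts of each gene class are to be read against these shares. In each of the 7814 called genes both Th2 libraries lay on the same side of both naive libraries. Over all genes tested, uncalled ones included, both Th2 libraries lay above both naive libraries in 3978 and below them in 5228. Every gene said below to rise, fall, or be higher or lower was called. After scaling each library to its median the median difference of all genes was -0.03, so the sign of a small difference depends on the scaling.

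Both groups carried the markers of their labels. The upper confidence limits deposited beside each FPKM implied 14463466 and 14475884 fragments in the naive libraries and 19780896 and 19593492 in the Th2 libraries. Log2 levels correlated at 0.954 between the naive and 0.95 between the Th2 libraries, against 0.637 to 0.673 across the groups. The naive markers *Ccr7*, *Tcf7* and *Lef1* were lower in Th2 cells, and *Gata3*, *Il4*, *Il5* and *Il13* were higher. *Ifng*, the defining cytokine of Th1 cells, had 0 and 0.165 in the Th2 libraries. *Tbx21*, which encodes the Th1 factor T-bet, had 1.07 and 0.778. *Il17a* of Th17 cells had 0.711 and 0.446. These transcripts of the other helper types were thus near or under an FPKM of 1 in both Th2 libraries.

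Defining T cell genes stayed high, with a sum over *Cd3d*, *Cd3e*, *Cd3g*, *Cd4* and *Cd2* of 1825 and 1770.0 (naive) and 1433 and 1408 (Th2). Each list of genes of another cell type summed to less. The 10 basophil and mast cell genes, which matter here because those cells also make IL-4, summed to 10.3 and 10.7 (naive) and 2.4 and 2.31 (Th2). Of these genes 2 were tested, and both were lower. In the Th2 libraries *Mcpt8* had 0.0517 and 0.0523 while *Prss34* and *Fcer1a* were listed at 0, so nearly all of the Th2 sum came from other members. The 9 B cell genes summed to 10.3 and 8.16 (naive) and 9.07 and 13.9 (Th2). The 10 genes of monocytes and macrophages summed to 39.7 and 35.2 (naive) and 42.8 and 37.5 (Th2), among them *C1qa*, which went from 9.01 and 7.64 to 0 and 0.151, and *Lyz2*, which went from 6.94 and 6.33 to 19.9 and 11.7. The 7 dendritic cell genes summed to 65.1 and 76 (naive) and 43.3 and 37.6 (Th2), nearly all of it from *Bst2*, which is also an interferon-stimulated gene. Of 10 neutrophil and myeloid precursor genes 9 were in the files and summed to 1.61 and 0.506 (naive) and 9.52 and 0.952 (Th2), *Elane* having 3.71 and 0 in the Th2, 2.59 and 0 in the Th1 and 3.6 and 0 in the Th17 libraries, so above 0 in the first library of each culture and at 0 in the second. The 2 CD8 T cell genes summed to 93.4 and 54.5 (naive) and 13 and 9.0 (Th2), the 6 erythroid genes to 7.27 and 7.75 (naive) and 0.242 and 0.36 (Th2), and the 6 eosinophil genes to 1.14 and 0.895 (naive) and 1.29 and 0.792 (Th2). The 7 MHC class II genes summed to 107 and 106 (naive) and 162 and 189 (Th2), with *H2-Ab1*, a class II beta chain, going from 11.5 and 11.2 to 91.9 and 106 and *Cd74*, the class II invariant chain, from 44.8 and 42.2 to 21.6 and 24.3. In these bulk libraries fewer cells of a type and less RNA per cell cannot be told apart, and the part of these cells in the results was not tested.

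**Figure D1:**
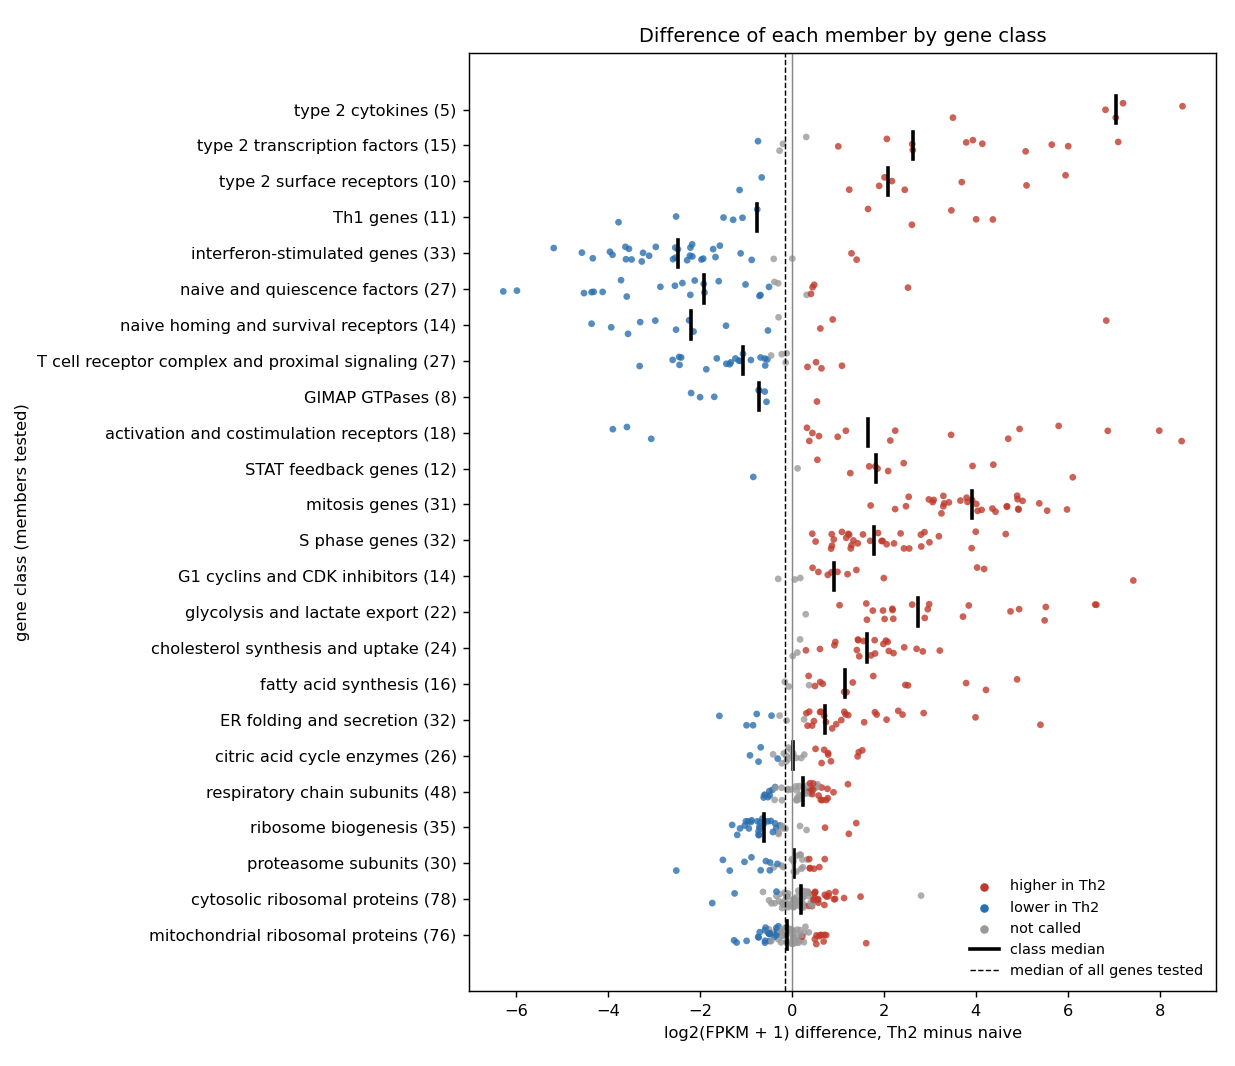
Difference in log2(FPKM + 1), Th2 minus naive, for each tested member (points) of 24 gene classes, with the class median (black bar) and the median of all 10944 genes tested (dashed line, -0.15). All points of the mitosis and S phase genes lie to the right of 0, and most of the interferon-stimulated genes, naive factors and T cell receptor genes lie to the left.

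Of 10 type 2 cytokine genes, 5 went from none or almost none to levels well above an FPKM of 1, and the other 5 stayed low. *Il4*, the cytokine that also drives further Th2 growth, was listed at 0 in both naive libraries and had 129 and 97.6 in the Th2 libraries (log2 difference 6.82, SE 0.13, adjusted p = 9.04e-08 by limma). *Il13*, which acts on epithelium and smooth muscle, was listed at 0 in both naive libraries and had 150.2 and 143 in the Th2 libraries (log2 difference 7.2, SE 0.20, adjusted p = 2.38e-07 by limma). *Il5*, the eosinophil growth factor, had 0 and 0.066 in the naive and 10.6 and 10.8 in the Th2 libraries (log2 difference 3.5, SE 0.10, adjusted p = 2.25e-07 by limma), so it was the lowest of the 3 in Th2 cells. Because no naive library had more than a trace of them, the size of each difference rests on the Th2 level and the pseudocount of 1.

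*Il10*, an anti-inflammatory cytokine, had 0 and 0.0796 in the naive libraries and 159.8 and 116 in the Th2 libraries (log2 difference 7.05, SE 0.16, adjusted p = 1.25e-07 by limma). *Il24*, a gene of the IL-10 family, reached the highest level of the list, with 0.0958 and 0.0962 in the naive libraries and 418 and 374 in the Th2 libraries (log2 difference 8.5, SE 0.12, adjusted p = 4.02e-08 by limma). Of the 10 type 2 cytokine genes listed these 5 passed the filter, each through its Th2 level alone, the naive mean being under 1. The other 5 were low or absent in both groups. *Il9*, of mast cell growth, and *Il3* were listed at 0 in all 4 libraries. *Csf2*, which encodes GM-CSF, had 0.593 and 0.20 in the Th2 libraries, *Areg*, an epithelial growth factor, 0.165 and 0.10, and *Il31*, the itch cytokine, 0.649 and 1.15.

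*Il4*, *Il13*, *Il5* and *Il10* were also higher in Th2 cells than in both other cultures. *Il4* had 1.14 and 1.2 in the Th1 and 5.0 and 5.0 in the Th17 libraries, so that Th2 minus Th1 was 5.71 and Th2 minus Th17 4.24 (adjusted p = 1.46e-06 and 4.43e-06 by limma). *Il13* had 0.0974 and 0.0682 in the Th1 and 7.09 and 12 in the Th17 libraries, with differences of 7.09 and 3.85 (adjusted p = 1.87e-06 and 3.29e-05 by limma). *Il5* differed by 3.48 from Th1 and 3.3 from Th17 (adjusted p = 1.87e-06 and 4.07e-06 by limma). *Il24* was abundant in Th17 cells as well, at 333 and 335, and its difference of 0.24 from them did not pass (adjusted p = 0.153 by limma).

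**Figure D2:**
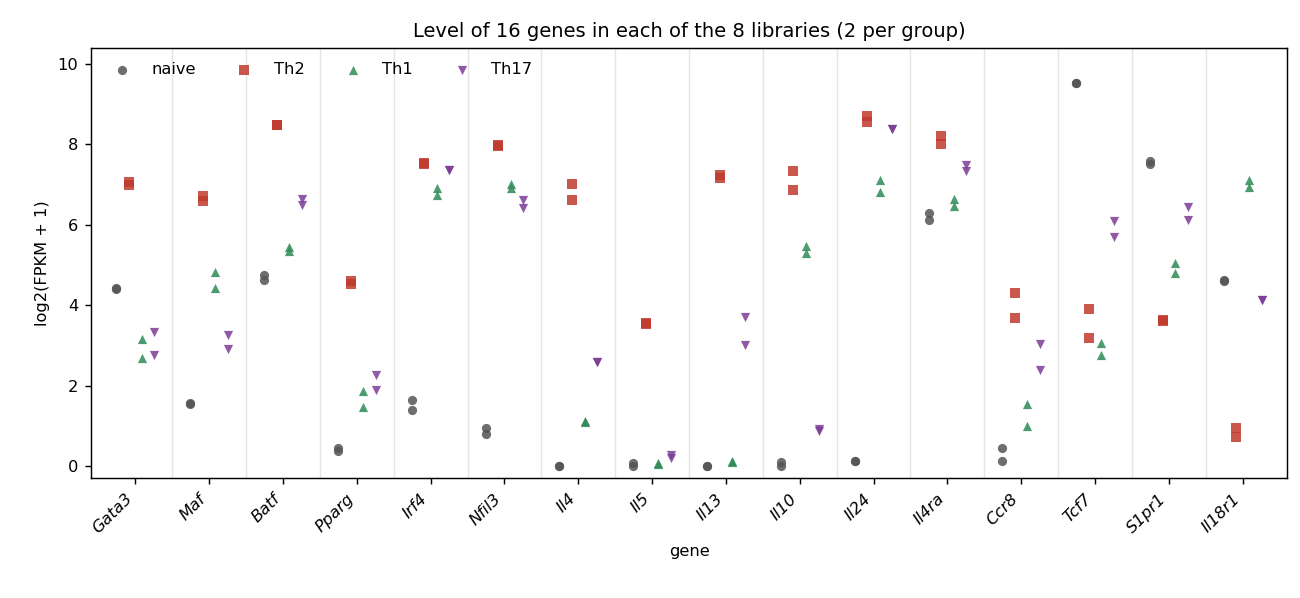
Level in log2(FPKM + 1) of 16 genes in the 2 naive (circles), 2 Th2 (squares), 2 Th1 (upward triangles) and 2 Th17 (downward triangles) libraries, 1 point for each library. The Th2 points of Gata3, Maf, Batf, Pparg, Il4, Il5, Il13 and Il10 lie above those of all other libraries, and those of Il18r1 and S1pr1 lie below them.

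The bases just before the start sites of the 3 defining cytokine genes are shown because these genes rose together from nothing and because 2 of the known Th2 factors have short motifs that can be looked for there. Each stretch is the 250 bases before the RefSeq start site on the GRCm38.p6 build, 5′ to 3′ on the gene's own strand, and RefSeq lists 2 start sites for *Il4*, of which the one nearest to the file's was used. Capitals mark a match to GATAA, the core of GATA motifs, or to the spaced palindrome of STAT6, in which TTC and GAA are parted by 4 free bases. Both strands were searched, and the motifs do not overlap each other in these windows.
Il4, chr11:53618666-53618915, minus strand: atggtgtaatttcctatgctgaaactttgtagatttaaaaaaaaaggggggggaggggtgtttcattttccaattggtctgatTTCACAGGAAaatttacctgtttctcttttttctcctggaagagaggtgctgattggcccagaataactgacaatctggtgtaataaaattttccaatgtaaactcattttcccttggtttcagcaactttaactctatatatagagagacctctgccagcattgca
Il13, chr11:53634703-53634952, minus strand: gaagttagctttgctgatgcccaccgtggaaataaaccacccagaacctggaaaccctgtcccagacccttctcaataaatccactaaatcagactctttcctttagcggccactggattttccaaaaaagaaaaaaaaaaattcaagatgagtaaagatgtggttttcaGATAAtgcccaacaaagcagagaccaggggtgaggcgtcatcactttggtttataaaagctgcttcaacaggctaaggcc
Il5, chr11:53720544-53720793, plus strand: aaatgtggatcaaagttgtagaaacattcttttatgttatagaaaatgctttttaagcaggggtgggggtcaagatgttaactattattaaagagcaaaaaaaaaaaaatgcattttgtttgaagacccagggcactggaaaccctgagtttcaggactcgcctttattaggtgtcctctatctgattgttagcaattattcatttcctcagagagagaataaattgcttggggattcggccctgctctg
The *Il4* stretch held the STAT6 palindrome from base -167 and no GATAA, *Il13* held GATAA from base -80 and no STAT6 palindrome, and *Il5* held neither. No stretch held the palindrome of the other STATs, with 3 free bases between TTC and GAA, and the window of *Gata3* (chr2:9878601-9878850, minus strand) held none of the 3 motifs. Of 32851 promoter windows of the same length, 22.6% held GATAA, 5.85% the STAT6 palindrome and 7.02% the palindrome of the other STATs. These matches are descriptions of letters, not of bound sites.

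The 3 genes lie near each other on chromosome 11, and their tested neighbors were called too, as were 71.4% of all genes tested. The interval from 100 kb below *Il4* to 100 kb above *Il5*, 53512461 to 53825103 in the mm10 coordinates of the files, was chosen after the values were seen and held 8 genes, of which 7 were tested. *Rad50*, a DNA repair gene between *Il13* and *Il5* whose body is known to hold the control region of the cluster, had 6.42 and 7.54 in the naive libraries and 23.3 and 27.8 in the Th2 libraries (log2 difference 1.73, SE 0.13, adjusted p = 1.98e-05 by limma). *Kif3a*, a kinesin gene next to *Il4*, rose from 1.4 and 1.35 to 13.9 and 14.8 (log2 difference 2.69, SE 0.09, adjusted p = 3.80e-07 by limma). *Sept8*, a septin gene, rose from 0.958 and 0.673 to 13.6 and 13.9 (log2 difference 3.03, SE 0.11, adjusted p = 5.75e-07 by limma). In the opposite direction *Irf1*, an interferon-induced factor beyond *Il5*, fell from 208 and 233 to 25.1 and 25.5 (log2 difference -3.07, SE 0.11, adjusted p = 6.62e-07 by limma). Th2 levels of *Sept8*, *Kif3a* and *Rad50* were also above those of Th1 cells, by 1.88, 1.64 and 1.34, and of Th17 cells, by 0.74, 1.29 and 1.36.

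**Figure D3:**
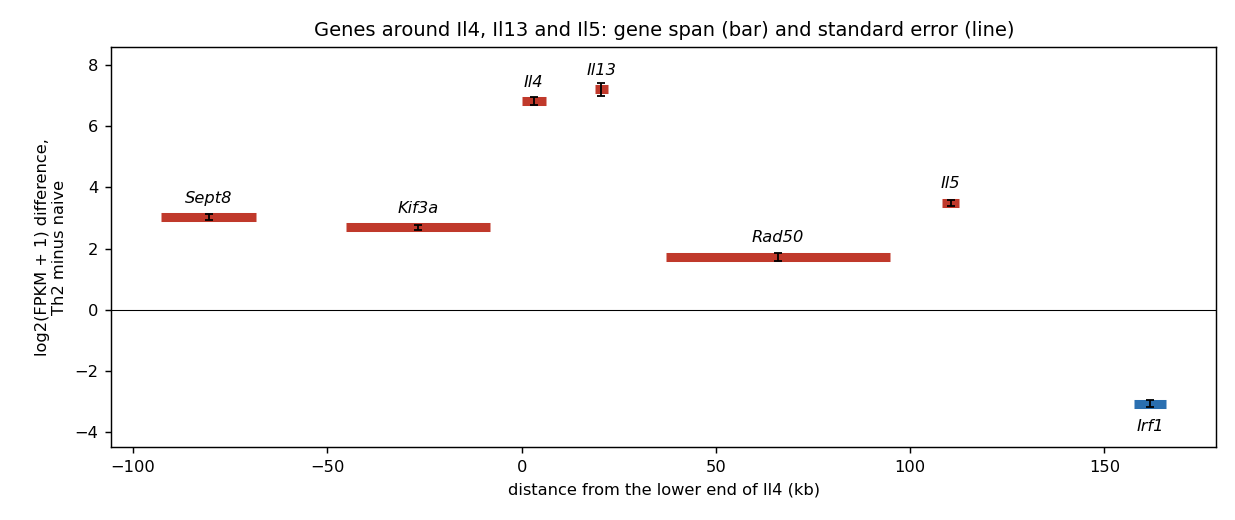
Difference in log2(FPKM + 1), Th2 minus naive, of the 7 tested genes around Il4, Il13 and Il5, plotted against distance in kb from the lower end of Il4. Bars span each gene and vertical lines are standard errors. The 6 genes from Sept8 to Il5 lie above 0 and Irf1 lies at -3.07.

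The transcription factors tied to type 2 differentiation mostly rose. *Gata3*, the factor that commits cells to the Th2 fate, had 20.2 and 20.4 in the naive libraries and 127 and 133 in the Th2 libraries, a 6.4-fold ratio of means (log2 difference 2.62, SE 0.22, adjusted p = 3.20e-05 by limma). *Maf*, which drives *Il4* and *Il10*, rose from 1.94 and 1.99 to 95.5 and 104 (log2 difference 5.09, SE 0.17, adjusted p = 4.09e-07 by limma). *Nfil3*, a basic leucine zipper factor, showed the largest change of the list, from 0.928 and 0.736 to 252 and 248 (log2 difference 7.1, SE 0.11, adjusted p = 4.02e-08 by limma). All 15 factors listed were tested, and 11 were called higher, each at least 2-fold, 1 was called lower and 3 were not called, with a median difference of 2.63 beside -0.15 for all genes. In 4 of the higher ones, *Nfil3*, *Bhlhe40*, *Bhlhe41* and *Pparg*, the naive mean was under 1. These passed the filter through their Th2 level alone and could hardly be called other than higher.

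*Irf4*, needed for effector differentiation of several helper types, rose from 1.62 and 2.15 to 186 and 183 (log2 difference 6.01, SE 0.12, adjusted p = 9.04e-08 by limma). *Bhlhe40*, a repressor of *Il10*, rose from 0.705 and 0.935 to 67.5 and 121 (difference 5.65), with the Th2 libraries far apart. *Pparg*, a lipid-sensing nuclear receptor, rose from 0.307 and 0.364 to 22 and 23.2 (log2 difference 4.14, SE 0.17, adjusted p = 9.33e-07 by limma), and *Batf*, a partner of IRF4, which was already present in naive cells, rose from 25.8 and 23.6 to 356 and 354 (log2 difference 3.79, SE 0.10, adjusted p = 1.82e-07 by limma). The signal transducer of IL-4 itself was not called: *Stat6* had 58.7 and 68.7 in the naive libraries and 52.8 and 58.2 in the Th2 libraries, a difference of -0.19 (adjusted p = 0.269 by limma). *Junb* (-0.27) and *Stat5b* (0.31) were not called either, while *Stat5a*, a transducer of IL-2, rose (difference 1.01). With the replicate number added to the fit as a block, *Stat6* was called lower (adjusted p = 0.0477) and *Stat5b* higher (adjusted p = 0.00495, both by limma). Without that block *Notch1*, a receptor that promotes *Gata3*, was the one that fell, from 17.9 and 30.0 to 13.3 and 13.8 (log2 difference -0.74, SE 0.26, adjusted p = 0.0375 by limma). That call was lost without the first Th2 (adjusted p = 0.132), the second Th2 (adjusted p = 0.113) or the second naive library (adjusted p = 0.202), and with no filter or after median scaling or quantile normalization (adjusted p = 0.0566 to 0.0673, all by limma).

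Of the 15 factors, 8 were higher in Th2 cells than in both Th1 and Th17 cells, beside 9.56% of all genes tested, and 1 was lower than in both, beside 18.1%. *Gata3* stood at 5.46 and 7.95 in the Th1 and 5.83 and 9.19 in the Th17 libraries, under its naive level. *Batf* lay above Th1 by 3.08 and above Th17 by 1.9, *Maf* by 2.02 and 3.56, and *Pparg* by 2.89 and 2.48. *Bhlhe41*, a relative of *Bhlhe40*, was listed at 0 in both naive libraries, had 2.45 and 4.09 in the Th2 libraries and lay above both others (adjusted p = 1.88e-04 against Th1 and 3.85e-04 against Th17 by limma). *Bhlhe40* was the lower one, with 159 and 175 in the Th1 and 174 and 213 in the Th17 libraries.

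Most of the receptors known from Th2 cells that were tested also rose. *Il4ra*, the IL-4 receptor chain, had 69.1 and 77.9 in the naive libraries and 296 and 258 in the Th2 libraries (log2 difference 1.9, SE 0.13, adjusted p = 1.09e-05 by limma). *Ccr4*, a chemokine receptor for homing to skin and lung, rose from 0.963 and 1.78 to 80.9 and 78 (log2 difference 5.1, SE 0.16, adjusted p = 3.40e-07 by limma). *Ccr8*, another homing receptor of Th2 cells, rose from 0.0918 and 0.369 to 18.6 and 11.8 (log2 difference 3.7, SE 0.31, adjusted p = 3.35e-05 by limma). *Cysltr1*, a receptor for cysteinyl leukotrienes, rose from 0 and 0.0172 to 65.7 and 57.6 (log2 difference 5.95, SE 0.21, adjusted p = 5.42e-07 by limma). *Il1rl1*, which encodes the IL-33 receptor ST2, rose to a lower level, from 0.207 and 0.388 to 4.41 and 5.34 (log2 difference 2.18, SE 0.17, adjusted p = 2.56e-05 by limma). Of 12 receptors listed 10 were tested, 8 were higher and 2 lower, with a median of 2.1. In 3 of the higher ones, *Il1rl1*, *Ccr8* and *Cysltr1*, the naive mean was under 1, so they passed the filter through their Th2 level alone. The lower ones were *Il2rg*, the common gamma chain (difference -0.66), and *Il17rb*, the IL-25 receptor chain, which went from 2.82 and 4.18 to 1.34 and 0.751 (difference -1.14). *Ccr3* and *Gpr44*, which encodes CRTH2, were not tested, *Gpr44* having 0.0377 and 0.0187 in the naive libraries and under 0.1 in both Th2 libraries. In 7 of the 10 the Th2 level was above both other cultures, for *Il4ra* by 1.55 over Th1 and 0.70 over Th17 (adjusted p = 1.18e-04 and 0.00506 by limma). *Ccr4* was not one of these 7. It had 34.6 and 32.8 in the Th1 libraries, but 89.8 and 85.3 in the Th17 libraries, more than in either Th2 library. *Cysltr1* was abundant in Th17 cells as well, at 49.5 and 36.6.

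Genes of the Th1 program were divided. *Il18r1*, a receptor chain for IL-18, fell from 23.4 and 23.6 to 0.666 and 0.935 (log2 difference -3.77, SE 0.11, adjusted p = 2.48e-07 by limma). The IFN-γ receptor chains *Ifngr2* (difference -1.28) and *Ifngr1* (difference -0.75) fell as well. *Il12rb2*, the inducible IL-12 receptor chain, rose from 0.509 and 0.768 to 29.1 and 37 (log2 difference 4.37, SE 0.16, adjusted p = 6.93e-07 by limma). Of 15 Th1 genes listed 11 were tested, 5 called higher and 6 lower, with a median of -0.75. In 5 of the 11, *Il12rb2* and *Il18r1* included, a group mean was under 1, so they passed the filter through the other group alone.

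In 8 of these 11 the Th2 level was below that of both Th1 and Th17 cells. *Il12rb2* reached 193 and 233 in the Th1 and 110.3 and 129 in the Th17 libraries. *Il18r1* had 122 and 137 in the Th1 and 16.4 and 16.6 in the Th17 libraries. *Cxcr3*, a chemokine receptor of Th1 cells, fell from 1.55 and 3.41 to 0.256 and 0.142 in Th2 cells and stood at 8.01 and 9.35 in the Th1 and 11.3 and 11.5 in the Th17 libraries.

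Of the 12 Th17 genes 6 were tested, 3 higher, 2 lower and 1 not called. The 3 higher ones, *Il21*, *Il1r1* and *Ahr*, had a naive mean under 1. They passed the filter through their Th2 level alone and could hardly be called other than higher. *Il21*, a cytokine shared with follicular helper cells, rose from 0.0761 and 0.0306 to 22.4 and 18.9 (log2 difference 4.35, SE 0.14, adjusted p = 3.67e-07 by limma), and the IL-6 receptor chains *Il6ra* (difference -3.18) and *Il6st* (difference -1.28) fell. Of 12 regulatory and follicular T cell genes 9 were tested, 5 higher and 4 lower. The 4 lower ones had a Th2 mean under 1 and passed the filter through their naive level alone. *Foxp3*, the regulatory T cell factor, fell from 6.68 and 12.8 to 0.423 and 0.541 (log2 difference -2.8, SE 0.32, adjusted p = 1.80e-04 by limma), and the naive libraries themselves lay apart. *Tox*, an HMG box factor, fell from 14.3 and 17.9 to 0.0124 and 0.163 (log2 difference -3.97, SE 0.17, adjusted p = 1.14e-06 by limma), and *Bcl6*, the follicular helper factor, fell as well (difference -1.92). *Lrrc32*, which encodes GARP, rose instead (difference 3.28), as did *Ikzf4*, which encodes Eos (difference 2.52).

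The interferon-stimulated genes fell almost throughout. *Iigp1*, an immunity-related GTPase, fell from 28.7 and 59.8 to 0.0598 and 0.295 (log2 difference -5.18, SE 0.31, adjusted p = 6.69e-06 by limma). *Irf7*, the amplifier of type I interferon, fell from 52.5 and 89.5 to 2.6 and 2.32 (log2 difference -4.33, SE 0.24, adjusted p = 4.06e-06 by limma). *Isg15*, a ubiquitin-like protein, fell from 23.6 and 40.4 to 2.02 and 1.26 (log2 difference -3.61, SE 0.27, adjusted p = 1.98e-05 by limma). *Rtp4* fell from 20.1 and 30.9 to 0 and 0.194 and *Zbp1*, a sensor of nucleic acid, from 111 and 171 to 7.74 and 8.16. Of 36 genes listed 33 were tested, 29 of them lower, 28 at least 2-fold, 2 higher and 2 not called, with a median of -2.48 beside -0.15 for all genes. In 11 of the 33 the Th2 mean was under 1. These passed the filter through their naive level alone and could hardly be called other than lower. The higher ones were *Dhx58*, a regulator of RNA sensing, with 6.84 and 11.5 in the naive libraries and 21.8 and 29.4 in the Th2 libraries, and *Isg20*, an exonuclease (difference 1.3). The naive libraries were unequal in many of these genes. *Ifit3* had 6.51 and 17.6, *Mx2* 2.93 and 8.05 and *Oas2* 7.31 and 18.9 in the naive libraries, all antiviral genes that were higher in the second library, and for each of them both naive libraries were above both Th2 libraries.

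In 13 of the 33 the Th2 level was also below both other cultures. The Th17 cultures had the same dose of antibody to IFN-γ as the Th2 cultures, and the Th1 cultures had none. *Gbp2*, a guanylate-binding protein, fell from 71.6 and 107 to 16.7 and 19.4 in Th2 cells (log2 difference -2.22, SE 0.21, adjusted p = 6.11e-05 by limma) and had 145 and 178 in the Th1 and 78.7 and 92 in the Th17 libraries. *Zbp1* had 88.8 and 99.3 in the Th1 and 30.6 and 39.3 in the Th17 libraries. Other members were near 0 in all 6 effector libraries, such as *Rtp4*, with 0.214 and 0.125 in the Th1 and 0.34 and 0.151 in the Th17 libraries. Immunoproteasome subunits, which interferon also induces, were lower as well. *Psmb10* fell from 98.2 and 108 to 18.1 and 16.4 (log2 difference -2.51, SE 0.14, adjusted p = 4.36e-06 by limma), with *Psmb9* (difference -1.35) and *Psmb8* (difference -0.68) beside it.

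Genes of the resting state of naive cells mostly fell. *Tcf7*, which encodes TCF-1, had 735 and 741 in the naive libraries and 8.08 and 14.1 in the Th2 libraries, a 66.5-fold ratio of means, naive over Th2 (log2 difference -5.98, SE 0.25, adjusted p = 1.15e-06 by limma). *Klf2*, which keeps homing receptors on, fell from 257 and 221 to 8.43 and 13.5 (log2 difference -4.36, SE 0.27, adjusted p = 8.08e-06 by limma). *Dapl1*, a gene of resting T cells, fell from 135 and 129 to 0.356 and 1.17 (log2 difference -6.28, SE 0.22, adjusted p = 5.31e-07 by limma). *Foxp1*, a quiescence factor, fell from 37.9 and 36.4 to 0.88 and 1.58 (log2 difference -4.12, SE 0.16, adjusted p = 7.87e-07 by limma). *Rasgrp2*, an activator of the GTPase Rap1, fell from 139.9 and 152 to 5.5 and 5.31 and *Trib2*, a pseudokinase, from 104 and 92.7 to 3.36 and 4.71. All 27 genes listed were tested, 20 were lower, 17 of them at least 2-fold, 4 were higher and 3 not called, and the median was -1.92.

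Some members fell little or rose. *Foxo1*, which drives *Klf2*, fell from 68.6 and 70.8 to 41.4 and 43.3 (difference -0.70), and *Ets1*, a factor of T cell identity, fell about as much (difference -0.68). *Satb1*, a chromatin organizer, was slightly higher (log2 difference 0.42, SE 0.10, adjusted p = 0.00865 by limma). *Myb*, a factor of cycling precursors, rose from 6.06 and 6.54 to 41.1 and 40.9 (log2 difference 2.53, SE 0.12, adjusted p = 2.47e-06 by limma). *Cdkn1b*, the p27 inhibitor of the cell cycle, had 76.6 and 65.8 in the naive libraries and 45.8 and 72.4 in the Th2 libraries, with overlapping groups and no call (adjusted p = 0.237 by limma), but was called lower without the second Th2 library (adjusted p = 0.014 by limma). *Tcf7* was at 5.79 and 7.33 in the Th1 and 51.1 and 67.3 in the Th17 libraries, and the Th2 level was below Th17 by a difference of -2.35 (adjusted p = 6.29e-04 by limma).

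Genes of naive homing and survival were mostly lower too. *S1pr1*, the receptor for exit from lymph nodes, fell from 192 and 182 to 11.4 and 11.2 (log2 difference -3.93, SE 0.13, adjusted p = 4.91e-07 by limma). *Ccr7*, the receptor for entry, fell from 327 and 310.4 to 72.6 and 70.5 (log2 difference -2.14, SE 0.09, adjusted p = 1.34e-06 by limma). *Cd27*, a costimulatory receptor of naive cells, fell from 270.2 and 252 to 21 and 21.3 (log2 difference -3.56, SE 0.14, adjusted p = 8.16e-07 by limma). Of 14 genes listed, most but not all of them receptors, all were tested, 10 were lower and 3 higher, with a median of -2.19. *Ly6c1*, a surface protein of T cell subsets, rose most, from 0.61 and 2.9 to 297 and 276 (log2 difference 6.84, SE 0.35, adjusted p = 3.17e-06 by limma), while *Il7r*, the IL-7 receptor chain, fell by a small amount (difference -0.52), a call lost without the second Th2 (adjusted p = 0.0823) or the first naive library (adjusted p = 0.0747) or after median scaling (adjusted p = 0.0502, all by limma). Th2 cells had less *S1pr1* than both other cultures, which had 32 and 26.8 (Th1) and 85.8 and 69.1 (Th17), with differences of -1.3 and -2.66 (adjusted p = 3.67e-04 and 2.82e-05 by limma).

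T cell receptor signaling genes were mostly lower in Th2 cells. *Lat*, the membrane scaffold, fell from 511 and 533 to 89.2 and 102 (log2 difference -2.44, SE 0.20, adjusted p = 2.85e-05 by limma). *Prkcq*, a kinase of the synapse, fell from 135 and 146 to 26.2 and 23.5 (log2 difference -2.45, SE 0.12, adjusted p = 2.56e-06 by limma). *Fyn*, a Src family kinase, fell from 90.9 and 95.8 to 13.2 and 16.2 (log2 difference -2.59, SE 0.15, adjusted p = 5.88e-06 by limma), and *Lck*, the kinase bound to CD4, fell from 463 and 481 to 184 and 191 (log2 difference -1.33, SE 0.13, adjusted p = 8.75e-05 by limma). The receptor chains had small differences, *Cd3e* -0.59 and *Cd3g* -0.53, while *Cd3d* (-0.22) was not called. *Cd4* fell from 358 and 373 to 187 and 207 (log2 difference -0.89, SE 0.11, adjusted p = 3.27e-04 by limma). Of 27 genes, all tested, 19 were lower, 4 higher (*Zap70*, *Cd2*, *Ptpn22* and *Themis*) and 4 not called, *Zap70* losing its call without any one of the 4 libraries and under 3 other alternatives (adjusted p = 0.0502 to 0.166 by limma), with a median of -1.06. None was higher and 9 were lower than in both Th1 and Th17 cells.

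Among the GIMAP GTPases, which support the survival of resting T cells, 7 of 8 were lower, led by *Gimap6*, which fell from 535 and 489 to 119.7 and 103 (log2 difference -2.19, SE 0.11, adjusted p = 2.96e-06 by limma), and *Gimap7* was higher (difference 0.55). Of 20 genes of the AP-1, NFAT, NR4A and EGR list 16 were tested, 4 called higher, 9 lower and 3 not called. *Dusp1*, an early phosphatase, fell from 51.4 and 41.3 to 8.78 and 9.93 (log2 difference -2.19, SE 0.13, adjusted p = 6.91e-06 by limma). *Nr4a1*, a reporter of receptor signaling, fell from 13.1 and 17 to 2.98 and 3.35, and *Fos* from 40.1 and 29.6 to 12.9 and 12.9. *Egr1*, another early gene, had 14.1 and 15.8 in the naive libraries and 13.7 and 19.9 in the Th2 libraries, with overlapping groups, and was not called, though it was called higher without the first Th2 library (adjusted p = 0.0484 by limma). *Fosl2*, a late AP-1 member, rose from 0.825 and 0.682 to 47 and 50.5 (log2 difference 4.83, SE 0.11, adjusted p = 1.20e-07 by limma). *Batf3*, a relative of BATF, rose from 0.172 and 0.0863 to 69.3 and 51.7 (log2 difference 5.75, SE 0.16, adjusted p = 2.45e-07 by limma).

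Costimulatory receptors of the TNF family and the IL-2 receptor mostly rose. *Tnfrsf9*, which encodes CD137, had 1.26 and 2.74 in the naive libraries and 1043 and 1028 in the Th2 libraries (log2 difference 8.48, SE 0.22, adjusted p = 1.71e-07 by limma). *Tnfrsf4*, which encodes OX40, rose from 10.6 and 14.7 to 341 and 362 (log2 difference 4.71, SE 0.21, adjusted p = 1.43e-06 by limma). *Icos*, a relative of CD28, rose from 4.48 and 5.78 to 376 and 307 (log2 difference 5.8, SE 0.18, adjusted p = 3.03e-07 by limma). *Il2ra*, the inducible IL-2 receptor chain, rose from 4.55 and 5.67 to 787 and 644 (log2 difference 6.87, SE 0.14, adjusted p = 9.69e-08 by limma). *Cd40lg*, the ligand by which helper cells license B cells, fell instead, from 96.8 and 75 to 5.48 and 6.95 (log2 difference -3.59, SE 0.20, adjusted p = 4.59e-06 by limma), as did the early activation marker *Cd69* (difference -3.06) and the integrin chain *Itga4* (difference -3.89). Of 20 genes listed 18 were tested, 15 higher and 3 lower, with a median of 1.66. Among the higher ones, *Il2ra*, *Il2rb*, *Tnfrsf4*, *Tnfrsf8*, *Tnfrsf9* and *Tnfrsf18* encode receptors that the study picked by RNA sequencing as high in all effector subsets. Their direction is therefore not independent evidence, and the same holds for *Lilrb4* and *Itga7*, given below.

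Several of these differed from the other cultures. *Tnfrsf9* stood at 271 and 249.5 in the Th1 and 347 and 362 in the Th17 libraries, so the Th2 level was above them by 1.99 and 1.54 (adjusted p = 4.62e-04 and 0.00187 by limma). *Cd44*, a marker whose low level helped define the sorted naive cells, had 14.7 and 15.3 in the naive libraries and 18 and 21.7 in the Th2 libraries and reached 60.4 and 64.8 in the Th1 and 67.9 and 68.1 in the Th17 libraries. Its small difference from naive cells (0.38) was not called without the second Th2 (adjusted p = 0.0766) or the first naive library (adjusted p = 0.0676) or with only the naive and Th2 libraries fitted (adjusted p = 0.0515, all by limma). *Cd69* and *Cd40lg* were below both others as well. *Il2ra* was not called against Th1 (difference 0.23, adjusted p = 0.23 by limma) or against Th17 (difference -0.24, adjusted p = 0.201 by limma).

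Inhibitory receptors moved both ways. *Ctla4*, the brake on CD28, rose from 5.96 and 6.83 to 279 and 317 (log2 difference 5.34, SE 0.12, adjusted p = 1.20e-07 by limma). *Tigit* rose from 0.403 and 1.91 to 56.5 and 42.9 (log2 difference 4.64, SE 0.32, adjusted p = 1.23e-05 by limma), and *Lag3*, which binds MHC class II, rose from 0.388 and 1.44 to 21.6 and 19.6 (log2 difference 3.55, SE 0.26, adjusted p = 1.76e-05 by limma). *Pdcd1*, which encodes PD-1, rose to a low level, from 1.39 and 2.34 to 4.89 and 3.81 (log2 difference 0.91, SE 0.19, adjusted p = 0.00395 by limma). *Btla* (difference -1.76) and *Cd5* (difference -1.9), dampers of receptor signaling, fell. *Havcr2*, which encodes TIM-3, had 0.117 and 0.0922 in the Th2 libraries and was not tested. Of 16 listed 12 were tested, 7 higher, 4 lower and 1 not called.

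CD30, a receptor of the tumor necrosis factor family whose role in memory cells the study examined, was among the strongly raised genes. *Tnfrsf8*, which encodes it, had 0 and 0.16 in the naive libraries and 273 and 274 in the Th2 libraries (log2 difference 7.99, SE 0.11, adjusted p = 4.02e-08 by limma). *Tgm2*, which encodes transglutaminase 2, rose from 0.991 and 1.29 to 432 and 431 (log2 difference 7.66, SE 0.16, adjusted p = 1.13e-07 by limma). *Serpinf1*, a secreted serpin, rose from 0.237 and 0.272 to 277 and 319 (log2 difference 7.89, SE 0.11, adjusted p = 4.02e-08 by limma). The adaptor gene *Traf5* fell from 28.7 and 38.1 to 3.29 and 2.26 (log2 difference -3.19, SE 0.20, adjusted p = 7.30e-06 by limma). *Tnfsf8*, which encodes the CD30 ligand, had 20.6 and 26.1 in the naive libraries and 20.7 and 16.8 in the Th2 libraries and was not called (difference -0.30, adjusted p = 0.106 by limma), though it was without the first naive library (difference -0.46, adjusted p = 0.0396 by limma). Of 10 genes listed 9 were tested, 4 higher, 3 lower and 2 not called. The study picked *Tnfrsf8* by RNA sequencing as high in all effector subsets, so its direction is not independent evidence. It chose *Tgm2*, *Serpinf1*, *Batf3* and *Msc* from microarrays of Th1 and Th17 cells with high against low CD30, and from stimulation with the CD30 ligand. *Tgm2* had 57.5 and 59.8 in the Th1 and 426 and 599 in the Th17 libraries, and its Th2 level was above Th1 (difference 2.86, adjusted p = 2.70e-05 by limma) and not called against Th17 (difference -0.23, adjusted p = 0.301 by limma).

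Feedback and survival targets of cytokine STATs mostly rose. *Cish*, a target of STAT5, rose from 18.4 and 15.6 to 295 and 251 (log2 difference 3.93, SE 0.13, adjusted p = 3.94e-07 by limma). *Socs2*, an inhibitor of cytokine signaling, rose from 0.84 and 0.845 to 134 and 119 (log2 difference 6.11, SE 0.10, adjusted p = 4.57e-08 by limma), and *Socs1*, another, rose from 35.5 and 35 to 233 and 162 (log2 difference 2.43, SE 0.19, adjusted p = 2.31e-05 by limma). *Xbp1*, a factor of the secretory pathway, rose from 26.9 and 24.9 to 608 and 516 (log2 difference 4.38, SE 0.11, adjusted p = 1.88e-07 by limma). *Bcl2*, a survival gene, rose from 22.1 and 20.8 to 80.2 and 81.1 (log2 difference 1.86, SE 0.11, adjusted p = 5.05e-06 by limma), and *Bcl2l11*, which encodes the death activator BIM, fell from 16.8 and 15.7 to 8.3 and 9.0 (log2 difference -0.84, SE 0.13, adjusted p = 9.67e-04 by limma). All 12 were tested, with 10 higher, 1 lower, 1 not called and a median of 1.84. *Socs3* had 197 and 177 in Th2 cells and was above both other cultures, by 1.72 over Th1 and 1.26 over Th17.

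All mitosis and S phase genes listed were higher in the Th2 cultures. *Mki67*, which encodes the proliferation marker Ki-67, had 0.577 and 1.06 in the naive libraries and 51.2 and 56.4 in the Th2 libraries (log2 difference 4.92, SE 0.18, adjusted p = 6.62e-07 by limma). *Top2a*, a topoisomerase of dividing cells, rose from 1.18 and 1.93 to 103 and 106 (log2 difference 5.38, SE 0.15, adjusted p = 2.28e-07 by limma). *Aurkb*, a kinase of chromosome segregation, rose from 0.274 and 0.25 to 59.9 and 56.7 (log2 difference 5.55, SE 0.09, adjusted p = 4.30e-08 by limma). *Ube2c*, an enzyme of the anaphase-promoting complex, rose from 0.601 and 0.784 to 107 and 105 (log2 difference 5.98, SE 0.10, adjusted p = 4.57e-08 by limma). All 31 mitosis genes listed were tested and called higher, each at least 2-fold, with a median of 3.92, and in 21 of them the naive mean was under 1.

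All 32 genes of S phase were called higher as well, 26 of them at least 2-fold, with a median of 1.79. In 7 of them the naive mean was under 1. *Rrm2*, the inducible subunit of ribonucleotide reductase, rose from 1.37 and 1.42 to 70.9 and 49.4 (log2 difference 4.65, SE 0.16, adjusted p = 5.04e-07 by limma). *Tk1*, thymidine kinase, rose from 1.12 and 1.36 to 35.8 and 29.7 (log2 difference 3.91, SE 0.15, adjusted p = 6.82e-07 by limma), and *Mcm6*, of the replicative helicase, rose from 9.89 and 9.68 to 91.6 and 78.6 (log2 difference 2.99, SE 0.11, adjusted p = 5.58e-07 by limma). Of the S phase genes 15 were lower in Th2 than in both other cultures and none was higher. *Pcna*, the sliding clamp, had 149 and 126 in the Th2, 333 and 328 in the Th1 and 183 and 206 in the Th17 libraries. Of the mitosis genes 1 was lower than in both, the kinesin *Kif20a*, and 1 was higher, *Anln*, which encodes the ring protein anillin.

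Of 18 cyclins and inhibitors of G1 listed 14 were tested, 11 higher and 3 not called. *Cdkn1a*, the p21 inhibitor, showed the largest change of the list, from 0.102 and 0.36 to 196 and 224 (log2 difference 7.43, SE 0.15, adjusted p = 9.04e-08 by limma). *Cdk6*, a kinase of G1, rose from 0.944 and 1.37 to 33 and 43.7 (log2 difference 4.18, SE 0.18, adjusted p = 1.42e-06 by limma). *Myc*, a factor of cell growth, rose from 33.5 and 31.4 to 82.6 and 70.8 (log2 difference 1.21, SE 0.12, adjusted p = 6.76e-05 by limma), but lay below both Th1 and Th17, by differences of -1.52 and -0.99. *Ccnd2*, a D cyclin, was not called (0.18), though it was called higher without the second naive library (adjusted p = 0.032 by limma).

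Glycolysis genes rose at nearly every step. *Slc2a3*, a glucose transporter, had 11.2 and 12.4 in the naive libraries and 544 and 636 in the Th2 libraries (log2 difference 5.52, SE 0.16, adjusted p = 2.45e-07 by limma). *Hk2*, the inducible hexokinase, rose from 0.148 and 0.091 to 25.6 and 33.4 (log2 difference 4.76, SE 0.17, adjusted p = 5.75e-07 by limma). *Aldoc*, an aldolase, rose from 0.612 and 0.703 to 162 and 163 (log2 difference 6.62, SE 0.09, adjusted p = 4.02e-08 by limma), and *Pgk1*, phosphoglycerate kinase, rose from 51.2 and 47.6 to 1596 and 1502 (log2 difference 4.94, SE 0.12, adjusted p = 1.47e-07 by limma). *Slc16a3*, a lactate exporter, rose from 0.38 and 0.422 to 125 and 145 (log2 difference 6.6, SE 0.20, adjusted p = 2.92e-07 by limma). Of 22 genes, all tested, 21 were higher, each at least 2-fold, and *Pfkfb4* was not called, and the median was 2.75. With the replicate number added to the fit as a block, *Pfkfb4* was called higher (adjusted p = 0.0315 by limma). Processed copies of *Gapdh* and other enzymes can share reads, so their FPKM values are less certain.

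In 7 of the 22 the Th2 level was above both other cultures, and in none below both. *Slc2a3* had 175 and 209.6 in the Th1 and 171 and 213 in the Th17 libraries, with differences of 1.61 and 1.62 (adjusted p = 2.59e-04 and 4.08e-04 by limma). *Pfkfb3*, an activator of phosphofructokinase, was above them by 1.5 and 1.29. *Hk2* and *Pgk1* were called against neither.

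Many genes of the mitochondrion were not called. Of 26 genes of the citric acid cycle, all tested, 9 were higher, 4 lower and 13 not called, with a median of 0.02. *Got1*, an aminotransferase that feeds it, rose from 15.8 and 15.8 to 47.2 and 47.8 (log2 difference 1.53, SE 0.08, adjusted p = 3.90e-06 by limma), and *Idh2*, a dehydrogenase of the cycle, fell from 42 and 46.1 to 22.9 and 22.9 (log2 difference -0.91, SE 0.13, adjusted p = 5.70e-04 by limma). Of 48 subunits of the respiratory chain, all tested, 17 were higher, 7 lower and 24 not called, and without the second naive library 10 were higher. The largest change among them was that of *Cox8a*, of cytochrome oxidase, which rose from 191 and 156 to 419 and 389 (log2 difference 1.22, SE 0.14, adjusted p = 1.59e-04 by limma). None of the 48 was higher and 14 were lower than in both other cultures.

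Most genes of sterol synthesis rose, and none fell. *Hmgcs1*, an enzyme at the entry of the mevalonate pathway, rose from 12.1 and 11.3 to 67.8 and 68.8 (log2 difference 2.44, SE 0.11, adjusted p = 1.39e-06 by limma). *Lss*, lanosterol synthase, rose from 5.78 and 7.59 to 52.6 and 55.4 (log2 difference 2.85, SE 0.14, adjusted p = 2.67e-06 by limma). *Hsd17b7*, a later enzyme, rose from 2.43 and 2.17 to 27.3 and 32.1 (log2 difference 3.22, SE 0.12, adjusted p = 7.19e-07 by limma) and was above both other cultures, by 1.78 over Th1 and 1.07 over Th17. Of 25 genes of cholesterol synthesis and uptake 24 were tested, 21 higher and none lower, with a median of 1.64.

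In fatty acid synthesis 16 of 17 genes were tested, 13 higher and none lower. *Scd2*, a desaturase, rose from 12.7 and 13.8 to 256 and 274 (log2 difference 4.22, SE 0.09, adjusted p = 1.20e-07 by limma). *Fads2*, a desaturase of polyunsaturated fatty acids, rose from 0.0335 and 0 to 27.9 and 30.8 (log2 difference 4.9, SE 0.16, adjusted p = 3.86e-07 by limma). The genes of cholesterol efflux and its LXR regulators went the other way, with 4 of 6 tested lower and none higher. *Abcg1*, an efflux pump, fell from 21 and 24 to 1.67 and 2.33 (log2 difference -2.97, SE 0.15, adjusted p = 2.52e-06 by limma), and *Mylip*, which marks the LDL receptor for breakdown, fell from 26.5 and 33.4 to 1.04 and 1.06 (log2 difference -3.9, SE 0.18, adjusted p = 1.90e-06 by limma).

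Genes of the secretory pathway mostly rose. *Ero1l*, the oxidase of the endoplasmic reticulum, rose from 11.8 and 8.14 to 419 and 502 (log2 difference 5.41, SE 0.19, adjusted p = 5.35e-07 by limma). *P4hb*, protein disulfide isomerase, rose from 64.9 and 61.6 to 934 and 1121 (log2 difference 3.99, SE 0.14, adjusted p = 5.12e-07 by limma). *Spcs3*, of the signal peptidase, rose from 24.2 and 18.6 to 115 and 119 (log2 difference 2.41, SE 0.18, adjusted p = 2.16e-05 by limma). Of 32 genes, all tested, 24 were higher and 5 lower, with a median of 0.72. The lower ones were *Dnajc3* (-1.58), *Dnajb9* (-0.84) and *Sec63* (-0.44), cochaperones of BiP, and *Herpud1* (-0.99) and *Edem1* (-0.76), of protein degradation. Of the 32, 8 were above both other cultures and none was below. *Ero1l* stood at 164 and 139 in the Th1 and 127 and 111 in the Th17 libraries, with differences of 1.6 and 1.94 (adjusted p = 6.86e-04 and 4.39e-04 by limma). *P4hb* stood at 289 and 334 in the Th1 and 395 and 442 in the Th17 libraries.

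Of 21 genes of amino acid supply 19 were tested, 9 higher, 2 lower and 8 not called. *Asns*, asparagine synthetase, rose from 0.101 and 0.127 to 13.2 and 11.6 (log2 difference 3.58, SE 0.10, adjusted p = 2.35e-07 by limma). *Odc1*, of polyamine synthesis, rose from 5.89 and 5.13 to 98.3 and 88.1 (log2 difference 3.86, SE 0.10, adjusted p = 2.12e-07 by limma), and *Psat1*, of serine synthesis, rose from 8.96 and 8.12 to 64 and 60.3 (log2 difference 2.73, SE 0.10, adjusted p = 5.43e-07 by limma). *Slc7a5*, the large neutral amino acid transporter, was slightly higher (difference 0.45), though not without the first Th2 (adjusted p = 0.0617) or the first naive library (adjusted p = 0.0513, both by limma), and *Slc1a5*, the glutamine transporter, was not called (-0.12).

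The machinery that makes ribosomes was mostly lower in Th2 cells. *Bysl*, a processing factor of the small subunit, fell from 9.35 and 8.72 to 3.4 and 2.78 (log2 difference -1.3, SE 0.10, adjusted p = 2.74e-05 by limma). *Bop1*, of the large subunit, fell from 28.1 and 31.1 to 14 and 12.1 (log2 difference -1.13, SE 0.13, adjusted p = 1.95e-04 by limma), and *Polr1b*, a subunit of RNA polymerase I, fell from 8.27 and 8.62 to 4.18 and 3.16 (log2 difference -1.02, SE 0.13, adjusted p = 3.09e-04 by limma). Of 35 genes, all tested, 25 were lower, 3 higher (*Ncl*, *Rrp12* and *Npm1*) and 7 not called, with a median of -0.61, and 18 were lower than in both other cultures. *Npm1*, nucleophosmin, rose from 186 and 149.7 to 425 and 459.7 (log2 difference 1.4, SE 0.16, adjusted p = 1.74e-04 by limma). Of 84 cytosolic ribosomal protein genes 78 were tested, 21 higher, 3 lower and 54 not called, with a median of 0.20. Many of them have processed copies that share reads, and *Rpl26*, which every cell uses, was listed at almost 0 in all libraries, so single values here and an FPKM of 0 elsewhere can be failed estimates. Of 76 mitochondrial ribosomal proteins 11 were higher and 21 lower, and the lower count was 9 without the second Th2 library, 10 without the first naive library and 11 after median scaling.

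Of 30 proteasome subunits 6 were higher, 10 lower and 14 not called, with a median of 0.04. Of all genes tested, 31.1% were higher and 40.3% lower. In 18 of the 30 the Th2 level was below both other cultures, beside 18.1% of all genes tested. *Psmc5*, an ATPase of the cap, fell from 53.2 and 56 to 28.7 and 23.9 (log2 difference -1.03, SE 0.13, adjusted p = 3.54e-04 by limma), and *Psmb2*, a core subunit, rose from 75 and 76.9 to 115 and 116 (log2 difference 0.60, SE 0.12, adjusted p = 0.00289 by limma).

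Of 18 cytotoxic granule genes 11 were tested, 7 higher, 3 lower and 1 not called. In 5 of the 11, *Gzmb* and *Fasl* included, a group mean was under 1, so they passed the filter through the other group alone. *Gzma*, granzyme A, rose from 5.71 and 6.9 to 2601 and 2041 (log2 difference 8.31, SE 0.28, adjusted p = 4.50e-07 by limma). In the other cultures *Gzma* had 61.1 and 75.5 (Th1) and 22.3 and 41 (Th17), and the Th2 level was above them by 5.06 and 6.2 (adjusted p = 2.26e-05 and 1.82e-05 by limma). *Gzmb*, granzyme B, rose from 0.252 and 0.941 to 532 and 351 (log2 difference 8.12, SE 0.27, adjusted p = 4.56e-07 by limma) and was higher still in the Th1 libraries, at 1606 and 1823. *Prf1*, which encodes the pore protein perforin, fell from 15.7 and 17.5 to 3.93 and 3.39 (log2 difference -1.92, SE 0.10, adjusted p = 3.88e-06 by limma), and so did the death ligand gene *Fasl* (difference -1.42). The 7 genes of natural killer cells, which also carry these granules, summed to 0.805 and 1.26 (naive) and 0.167 and 0.239 (Th2).

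Of 18 genes of the S100, galectin and annexin group, all tested, 13 were higher and 3 lower, and 12 were lower than in both other cultures. *Lgals1*, galectin-1, rose from 59.5 and 55.6 to 875 and 837 (log2 difference 3.87, SE 0.14, adjusted p = 6.86e-07 by limma). *Anxa2*, an annexin, rose from 5.6 and 5.89 to 441 and 445 (log2 difference 6.04, SE 0.12, adjusted p = 8.81e-08 by limma), and *S100a1*, a calcium-binding protein, rose from 2.34 and 1.81 to 138 and 112 (log2 difference 5.35, SE 0.14, adjusted p = 2.08e-07 by limma). *S100a4*, a marker of effector and memory cells, had 14.3 and 19.3 in the naive libraries and 12.7 and 10.7 in the Th2 libraries and was not called, though it was called lower without the first naive library (adjusted p = 0.0477 by limma), while the other cultures had 227 and 309 (Th1) and 58.7 and 75.3 (Th17).

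Of 16 integrin subunits 13 were tested, 8 higher, 4 lower and 1 not called. *Itga7*, a laminin receptor chain, rose from 3.45 and 3.98 to 126 and 139 (log2 difference 4.83, SE 0.14, adjusted p = 2.46e-07 by limma). *Itgb3*, a partner of the alpha V chain, rose from 23.6 and 30.1 to 75.7 and 85.1 (log2 difference 1.56, SE 0.26, adjusted p = 0.00133 by limma), with 6.12 and 9.33 in the Th1 and 4.54 and 7.77 in the Th17 libraries. *Itgb7*, of the gut homing integrin, fell from 296 and 338 to 98.2 and 96.1 (log2 difference -1.69, SE 0.16, adjusted p = 6.65e-05 by limma).

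Of 19 chemokine receptors 12 were tested, 8 higher and 4 lower. In 8 of the 12 a group mean was under 1, so they passed the filter through the other group alone. Besides *Ccr4* and *Ccr8*, *Cxcr2*, better known from neutrophils, was listed at 0 in both naive libraries and had 9.16 and 10.2 in the Th2 libraries (log2 difference 3.42, SE 0.11, adjusted p = 4.30e-07 by limma). *Ccr9*, a gut homing receptor, fell from 9.27 and 8.81 to 0.0159 and 0.0242 (log2 difference -3.3, SE 0.09, adjusted p = 2.48e-07 by limma). *Ccr2*, a receptor of inflamed sites, rose from 0.619 and 0.882 to 7.81 and 6.3 but reached 94.3 and 75.3 in the Th1 and 95.6 and 62.5 in the Th17 libraries. Of 10 chemokine ligand genes 2 passed the filter. *Ccl22*, a ligand of CCR4, rose from 0 and 0.0273 to 4.38 and 4.85 (log2 difference 2.47, SE 0.09, adjusted p = 6.76e-07 by limma), and *Ccl5*, an inflammatory chemokine, had 2.01 and 2.55 in the naive libraries and 2.31 and 3.04 in the Th2 libraries and was not called. *Ccl17*, the other ligand of CCR4, had 0.954 and 0.428 in the Th2 libraries and was not tested.

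Over all genes tested, the 12 largest increases held 1 type 2 cytokine gene, *Il24*, and genes of other kinds. All of the 12 but *Ifitm2*, *Tnfrsf9* and *Gzma* had a naive mean under 1 and passed the filter through their Th2 level alone. The size of those differences therefore rests mostly on the Th2 level and the pseudocount. *Lilrb4*, an inhibitory receptor, rose from 0.198 and 0.181 to 940.0 and 854 (log2 difference 9.56, SE 0.14, adjusted p = 4.02e-08 by limma). Its neighbor *Gp49a* rose from 0.218 and 0.12 to 935 and 834, but the genes share much sequence and their values are uncertain. *Mt1*, a metallothionein that binds zinc, rose from 0.777 and 0.389 to 1256 and 1024 (log2 difference 9.5, SE 0.16, adjusted p = 5.33e-08 by limma), and its relative *Mt2* rose from 0 and 0.125 to 633 and 518 (log2 difference 9.08, SE 0.18, adjusted p = 9.04e-08 by limma). *Cyp11a1*, the enzyme that makes pregnenolone from cholesterol, rose from 0.167 and 0.112 to 492 and 339 (log2 difference 8.49, SE 0.20, adjusted p = 1.40e-07 by limma). *Akr1c18*, which breaks down progesterone, rose from 0.496 and 0.272 to 646 and 487 (log2 difference 8.67, SE 0.18, adjusted p = 9.35e-08 by limma). *Ifitm2* rose from 1.45 and 1.45 to 832 and 1018 and *Ifitm1* from 0.79 and 0.604 to 534 and 621, both membrane proteins of an interferon-inducible family, while most of the interferon-stimulated genes listed fell. *Tnfrsf9*, *Gzma* and *Gzmb*, described above, complete the 12.

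The 12 most negative differences held 4 small RNA genes, *Snord49a*, *Snord35b*, *Snord100* and *Mir568*, whose FPKM is unstable because they are shorter than the fragments. *Snord49a* had 2629 and 781 in the naive libraries and was listed at 0 in the Th2 libraries, and its call was lost without either Th2 or the first naive library. That of *Snord100* was lost without either naive library and under 6 other alternatives, with adjusted p-values of 0.0509 to 0.149 by limma over the 8. Of 163 small RNA genes tested in all, 6 were called higher and 27 lower. Of the coding genes, *Ms4a4b*, a membrane protein of T cells, fell from 579 and 459 to 0.544 and 3.56 (log2 difference -7.6, SE 0.44, adjusted p = 5.86e-06 by limma). *Mndal* fell from 125 and 120.3 to 0.96 and 1.47 (log2 difference -5.81, SE 0.13, adjusted p = 1.20e-07 by limma), and *Ifi203* fell from 95.1 and 85.3 to 0.597 and 0.884 (log2 difference -5.71, SE 0.16, adjusted p = 2.45e-07 by limma), both of the interferon-inducible p200 family. *Samd9l*, also induced by interferon, fell from 63.9 and 67.8 to 0.153 and 0.473 (log2 difference -5.68, SE 0.14, adjusted p = 1.47e-07 by limma). *Slc16a5*, of the monocarboxylate transporter family, fell from 52.8 and 46.5 to 0.0232 and 0.271 (log2 difference -5.47, SE 0.13, adjusted p = 1.44e-07 by limma). *Scg5*, a secretory granule chaperone, fell from 68.7 and 53.7 to 0.192 and 0.844 (log2 difference -5.38, SE 0.27, adjusted p = 2.78e-06 by limma). *Dapl1* and *Tcf7*, described above, complete the list. *Ifi203*, *Samd9l*, *Slc16a5*, *Scg5* and *Dapl1* had a Th2 mean under 1 and passed the filter through their naive level alone.

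**Figure D4:**
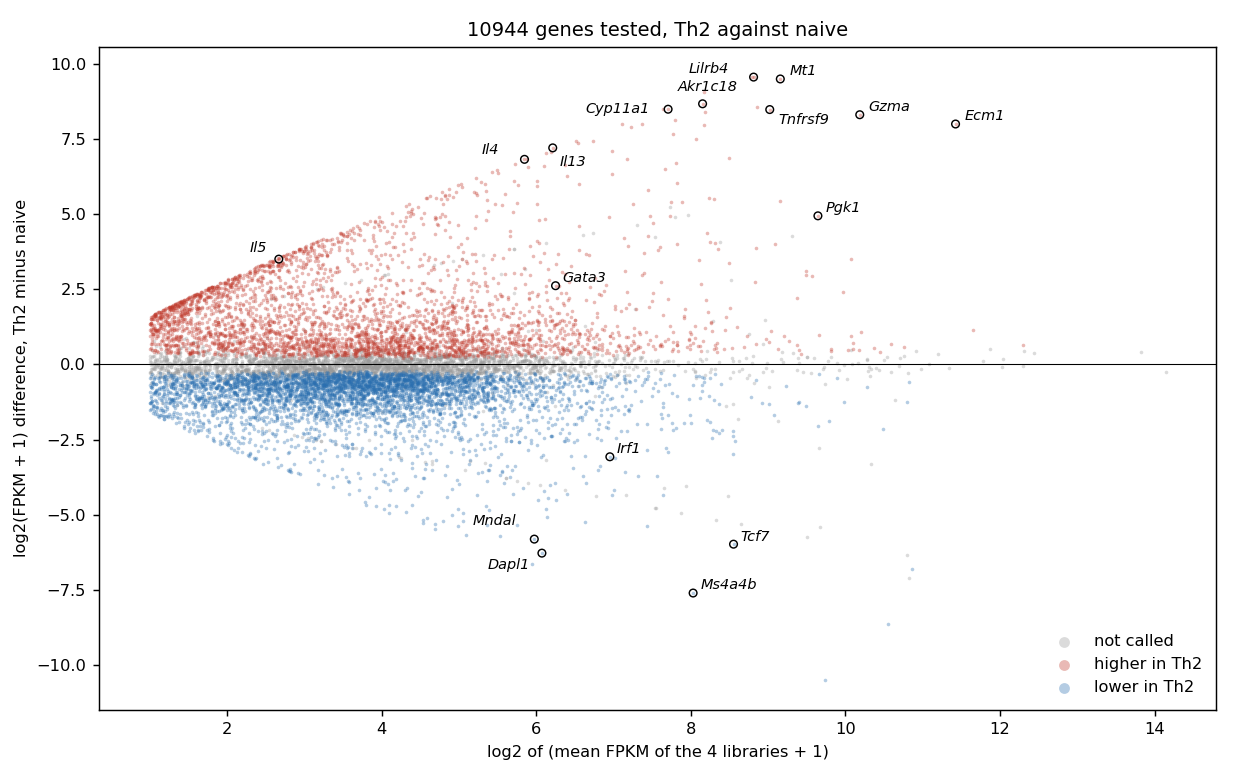
Difference in log2(FPKM + 1), Th2 minus naive, against the log2 of the mean FPKM plus 1 of the 4 libraries for the 10944 genes tested, with called genes in red (higher) and blue (lower) and some of the genes named in the text labelled. Ecm1 combines the highest level among the labelled genes with a difference of 8.0.

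*Ecm1*, a secreted matrix protein known to aid the exit of Th2 cells from lymph nodes, was among the most abundant transcripts of the Th2 cultures. It had 19 and 21.9 in the naive libraries and 5153 and 5798 in the Th2 libraries, a 268-fold ratio of means (log2 difference 8.0, SE 0.16, adjusted p = 9.04e-08 by limma), with 591 and 633 in the Th1 and 1261 and 1613 in the Th17 libraries. The other genes among the 10 with the highest mean FPKM in the Th2 libraries were *Rplp1*, *Eef1a1*, *Rpl41* and *Tmsb4x*, of protein synthesis and the cytoskeleton, and the small RNA genes *Mir682*, *Mir3064*, *Mir684-1*, *Mir703* and *Snord47*. In the naive libraries *Rplp1*, *Tpt1*, *Eef1a1* and *Tmsb4x* stood beside *Mir682*, *Mir3064*, *Mir684-1*, *Snord47*, *Snord104* and *Snora61*. *Eef1a1*, a translation factor, rose from 4043 and 3754 to 5919 and 6325 (log2 difference 0.65, SE 0.16, adjusted p = 0.00895 by limma), a call lost without the second Th2 library (adjusted p = 0.0671), with no filter (adjusted p = 0.223), after quantile normalization (adjusted p = 0.23) and with only the naive and Th2 libraries fitted (adjusted p = 0.0609, all by limma).

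Against both other effector cultures, 1046 genes were higher in Th2 cells and 1984 lower. Without the second Th2 library these were 686 and 966, and the lower count was 1116 without the second Th1 and 1087 without the second Th17 library. *Nts*, which encodes the peptide neurotensin, was listed at 0 in both naive libraries and had 80.9 and 96.1 in the Th2, 0.0333 and 0.0701 in the Th1 and 0.0636 and 0.212 in the Th17 libraries (Th2 minus Th1 6.41, adjusted p = 8.20e-07; Th2 minus Th17 6.3, adjusted p = 1.40e-06, both by limma). *Pth*, which encodes parathyroid hormone, was listed at 0 in the naive and Th1 libraries and had 69.9 and 56.8 in the Th2 and 0.0606 and 0 in the Th17 libraries. *Htr1b*, a serotonin receptor, had 43.5 and 51.5 in the Th2 and 0.324 and 0.303 in the Th17 libraries and was listed at 0 in the others. *Stfa2*, a cysteine protease inhibitor, had 48.2 and 64.5 in the Th2 and 0.783 and 0.472 in the Th17 libraries and was also listed at 0 in the others.

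*Epas1*, which encodes the hypoxia factor HIF-2α, had 1.89 and 1.72 in the naive libraries and 75.9 and 79.4 in the Th2 libraries (log2 difference 4.81, SE 0.17, adjusted p = 5.93e-07 by limma) and stood at 0.227 and 0.731 in the Th1 and 0.163 and 0.378 in the Th17 libraries. *Rnf128*, the ubiquitin ligase GRAIL, rose from 0.154 and 0.155 to 57.1 and 55.8 (log2 difference 5.64, SE 0.09, adjusted p = 4.30e-08 by limma) and stood at 0.792 and 0.739 in the Th1 and 0.804 and 0.732 in the Th17 libraries. *Cyp11a1* had 4.51 and 3.96 in the Th1 and 16.4 and 21.8 in the Th17 libraries, far under its Th2 level. With *Gzma*, *Il4* and the small RNA gene *Mir678*, these are the 10 genes ranked highest by the smaller of their differences from Th1 and Th17.

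At the other end, *Lta*, which encodes lymphotoxin alpha, rose from 12.1 and 10.0 to 26.3 and 26.6 but reached 412 and 372 in the Th1 and 365 and 358 in the Th17 libraries, with differences of -3.84 and -3.72 (adjusted p = 2.05e-06 and 4.07e-06 by limma). *Ms4a4b* stood at 209 and 213 in the Th1 and 36.9 and 46.3 in the Th17 libraries, above its Th2 level, with differences of -6.32 and -4.0 (adjusted p = 6.42e-05 and 7.53e-04 by limma). *Ccr2* and *Il18r1*, described above, and the small RNA gene *Mir3096b* were the others of the 5 ranked lowest.

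**Figure D5:**
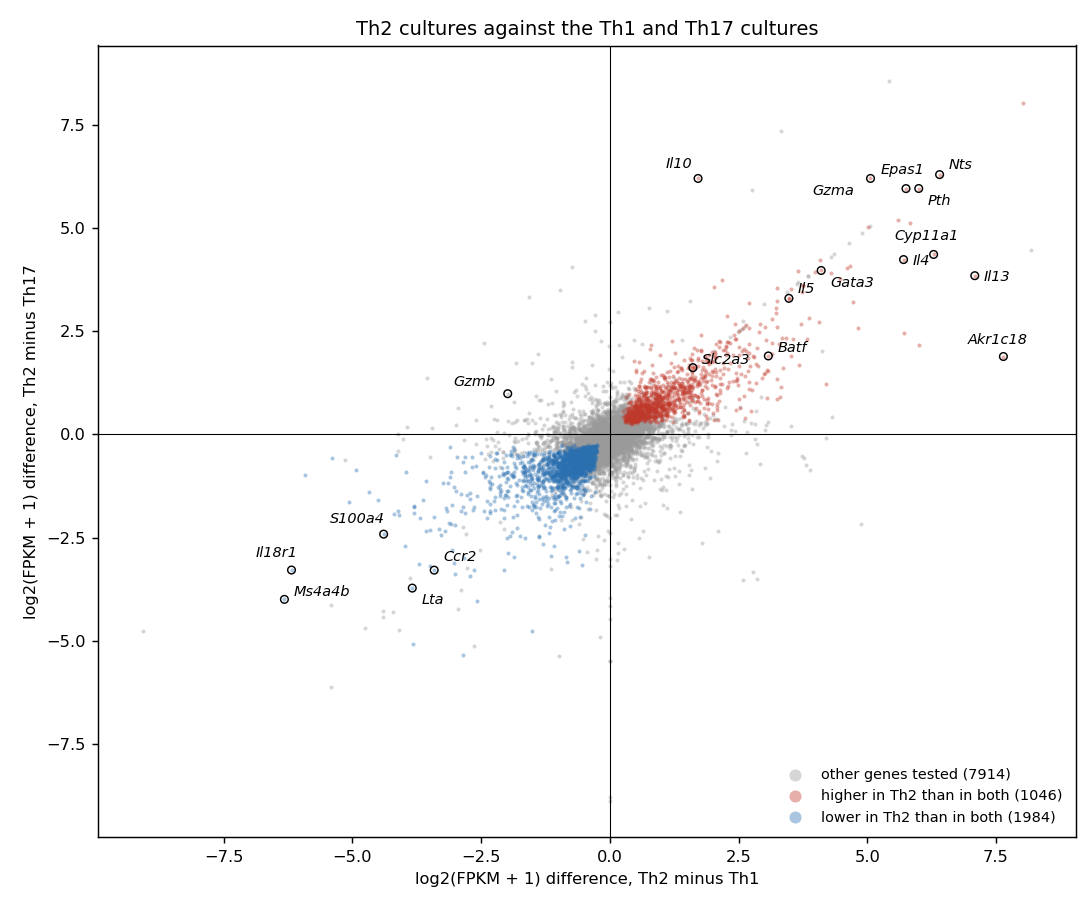
Difference in log2(FPKM + 1) of Th2 minus Th1 (horizontal axis) and Th2 minus Th17 (vertical axis) for the 10944 genes tested, with 1046 genes called higher than in both in red and 1984 called lower in blue. Nts, Pth, Epas1, Gzma, Cyp11a1, Il4 and Il13 lie far to the upper right and Ms4a4b, Il18r1, Lta and Ccr2 to the lower left.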

How the data were processed

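Poly(A) RNA of 2 libraries each of naive, Th2, Th1 and Th17 cells was sequenced. Per the labels and the submitters' processing notes, the authors aligned reads to mm10 with TopHat 1.3.2 and Bowtie 0.12.8 and deposited Cufflinks 2.0.2 FPKM values per gene, without replicate pooling. The kit is given as unstranded in the study's methods and as stranded in the labels, so overlapping and antisense genes may share reads. From these files, FPKM was summed over rows of a gene (23746 rows, 23284 genes) and log2(FPKM + 1) was fitted with limma 3.58.1 in R 4.3.3, using 4 group means over all 8 libraries, a mean-variance trend and two-sided tests. Depth was implied from the deposited confidence limits and covers counting error only. The script was tested on simulated data. Members and gene lists were chosen with earlier results of these data known. Genes were named as *Gata3*, *Il4*, *Il5* and *Il13*, as the most changed called members of a class, with uncalled members where a count needed them, and as the 12 highest and 12 lowest differences from naive, 10 highest and 5 lowest against both other cultures, and 10 highest levels in each group. The class and locus figures, and genes such as *H2-Ab1* and *Lyz2*, were chosen after values were seen. Alternatives were the filter, pseudocount, scaling, samples fitted, trend, replicate block, row choice and leaving out each library. Some members of the lists were counted with their class but are not reported here by name.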

Additional observations from a re-analysis of the deposited data

Results flagged for a closer look

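Some genes changed one way from naive cells in Th2 cultures and the other way in both Th1 and Th17 cultures, and the differences of Th2 from Th1 and from Th17 passed the test by limma as well. The 5 in each direction whose smallest difference from naive cells was largest are given, on the log2(FPKM + 1) scale. The 3 comparisons share the naive libraries, so their values are set side by side only. *Gata3* differed from naive cells by 2.62 in Th2, -1.49 in Th1 and -1.35 in Th17 cultures. *Itgb3*, the integrin chain, differed by 1.56, -1.69 and -1.99 in the same order. *Epas1*, which encodes HIF-2α, differed by 4.81, -0.94 and -1.15, and its naive level was low. *Map3k1*, a kinase upstream of JNK, differed by 0.78, -0.67 and -1.02. *Aff4*, a scaffold of transcription elongation whose gene lies on chromosome 11 with the cytokine cluster, differed by 1.39, -0.85 and -0.67.

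The other 5 fell in Th2 cultures and rose in the others. *Cxcr3* differed from naive cells by -1.49 in Th2, 1.53 in Th1 and 1.89 in Th17 cultures. *Gbp5*, a guanylate-binding protein, differed by -1.06, 2.01 and 1.75, and *Gbp1*, of the same family, by -1.38, 2.20 and 0.96. *Mov10*, an antiviral helicase, differed by -1.07, 0.92 and 1.81, and *Gm8369*, a predicted gene, by -0.97, 1.41 and 1.04.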

How the results depend on the processing

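Of 233 named genes tested, 210 were called and 200 of these were called under each of 14 alternatives that tested them. Genes higher and lower numbered 3401 and 4413, against 4581 and 5085 with no filter, 2329 and 3388 at a mean FPKM of at least 5, 3811 and 3909 after median scaling, 3425 and 4434 after quantile normalization, and 3084 to 3221 and 3831 to 4084 without any one of the 4 libraries. Of calls, 43.5% were higher, and 49.4% after median scaling. At a mean FPKM of at least 5, 1245 genes were at least 2-fold higher, and called members numbered 1 for Th17 genes, 0 for chemokine ligands and 4 each for chemokine and inhibitory receptors. With no filter 5 Th17 genes and 4 chemokine ligands were higher. Without 1 library, 686 to 1049 genes were higher and 966 to 1966 lower than in both other cultures (leaving out Th1 and Th17 libraries was added after the data were seen), 9 to 25 mitochondrial ribosomal proteins were lower and 10 to 21 respiratory subunits higher. Mitochondrial ribosomal proteins called lower numbered 11 after median scaling and 13 with naive and Th2 libraries alone. The cause of these shifts was not tested beyond the fewer genes or samples each alternative has.

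Genes whose sign turned under an alternative were not called with all libraries. After median scaling *Slc1a5* was at 0.008, *Tpt1* at 0.030 and *Snord47* at 0.063, and after quantile normalization *Ccl5* was at -0.094, *Rplp1* at -0.076, *Tmsb4x* at -0.010 and *Snord104* at -0.060. Without 1 library in turn, *Ccnd2* ranged from -0.026 to 0.394, *Cdkn1b* from -0.622 to 0.028, *Egr1* from -0.115 to 0.394, *Slc1a5* from -0.296 to 0.060, *Tmsb4x* from -0.199 to 0.591, *Tpt1* from -0.257 to 0.056, *Mir682* from -0.679 to 0.185, *Mir703* from -0.361 to 1.374, *Mir3064* from -1.472 to 2.310, *Mir684-1* from -0.950 to 1.814, *Snord104* from -0.479 to 0.689 and *Snord47* from -1.680 to 1.545, all as log2 differences of Th2 from naive libraries.

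Same-numbered libraries share only a number in the labels. Their deviations from the group means correlated at 0.137 for Th2 and naive and at 0.292 to 0.336 for the other pairs of groups. With the replicate number as a block, 3692 genes were higher and 4792 lower, and no called gene named here lost its call, while *Stat6* (-0.19, adjusted p = 0.0477), *S100a4* (-0.48, adjusted p = 0.0401), *Stat5b* (0.31, adjusted p = 0.00495) and *Pfkfb4* (0.30, adjusted p = 0.0315, all by limma), not called without the block, were called. *Stat5b*, *Pfkfb4* and *Rplp1* were also called higher after median scaling, and *Cd3d* and *Junb* lower after quantile normalization, under which *Cd2* lost its call (adjusted p = 0.0148 to 0.0686 by limma). With 2 libraries a group, differences near the call threshold are the least certain, and depth limits genes under an FPKM of about 1.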
